A study of Arabidopsis thaliana with 64 samples.

Results

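AMY1 (locus AT4G25000) encodes an alpha-amylase of Arabidopsis, and its transcript was followed across lines named for flowering loci. It is 1 of 5164 genes that the platform annotation names on the array, and it was taken as both probes annotated to it, SP0000119069 and SP0000123181, out of 13824 probes. These are called the first and the second probe below. The gene was picked for its values on these arrays, so they are given as a description, without a test.

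Alpha-amylases cut internal bonds of starch and related glucans and release shorter chains. Arabidopsis has a small family of them, of which AMY3 acts in the plastid, where transient leaf starch is stored, while AMY1 is secreted and is known for its induction in senescing or stressed leaves. Leaf starch is made in the light and broken down at night, mainly by beta-amylases after glucan, water dikinases have phosphorylated the granule.

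Total RNA of a line was set against total RNA of a comparator on each of 64 arrays with 2 channels, which form 32 groups of 1 array with swapped and 1 with unswapped dyes. The 14 single lines were each grown in 16 h (long) and 8 h (short) days. The photoperiod pathway is represented by GI, CO, FT, FD, FE, FHA and FWA and the autonomous pathway by FY, FCA, FPA and FVE, while GAI restrains gibberellin responses, SOC1 integrates flowering signals and FLC represses flowering. Plants were 12 days old and were set against WT, except FLC20, which was 9 days old and was set against C24. The labels of the FHA arrays at 16 h also name Ler. The double mutants FCAVRN1 and FCAVRN2 were each set against WT in 1 group and against FCA in another, so in 2 groups the comparator carries the FCA mutation too. For FCAVRN1 the titles and descriptions disagree on day length, as they do for the FVE group titled 16 h, which is kept here under its title. The sources used here give no allele, tissue or number of plants per sample and do not say what kind of line FLC20 is. The labels number the arrays of 31 groups as biological replicates 1 and 2, and those of GI at 16 h as the same one. They do not say whether these came from separately grown plants. As these were whole RNA samples, fewer cells of a type and less RNA per cell cannot be told apart.

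Values are log2 ratios, where 1 stands for a doubling. A positive value is read as higher in the line. This direction is an assumption, since the labels do not state it. An r below -0.3 over all probes was found for 7 of 992 pairs of arrays with the same dye orientation from different groups (lowest r -0.46). With the sign turned on all arrays, every higher value below is a lower one and the order of lines runs the other way. If it were turned on some arrays only, the line values and their order would change otherwise, which was not tested. The arrays held 13792 to 13824 ratios each, and between 0.0868% and 5.14% of them lay beyond 2-fold. The r over all probes between both arrays of a group ran from -0.51 (GI at 8 h) to 0.58 (GI at 16 h), with a median of 0.0286. It was positive in 20 of 32 groups. At 8 h and 16 h it was 0.50 and -0.03 in FLC20, and -0.01 and 0.07 in FE. In CO it was -0.0011 and 0.0097, and in SOC1 0.01 and -0.16. Signal over background is unknown, and the number of arrays limits the precision.

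Across all 64 arrays the first AMY1 probe lay between -1.18 and 2.03 with a median of 0.09, and 34 values were positive, 24 negative and 6 exactly 0. The second probe lay between -0.72 and 1.01 with a median of 0.05, and 36 values were positive, 25 negative and 3 exactly 0. The gene was thus close to its comparator on the middle array and far from it in a few lines. The SD of the 32 group means was 0.583 on the first probe, which only 20 of the 13824 probes exceeded, and 0.302 on the second, which 632 probes exceeded. The spread between arrays of a group was also wide: the residual SD of the first probe was 0.449, with 1.79% of all probes above it, and that of the second 0.271, with 18.0% above it.

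FLC20, FE and CO stood at the upper end. In FLC20 the first probe read 2.03 (swapped) and 0.47 (unswapped) at 16 h, and 1.67 (swapped) and 1.73 (unswapped) at 8 h. Of these arrays 3 lay close together, and the unswapped array at 16 h lay far below them. Over the 4 arrays the value was 1.47 ± 0.21 (SE), a 2.78-fold higher ratio against C24. The second probe gave 0.54 and 0.45 at 16 h and 0.89 and 0.10 at 8 h, swapped array first, and 0.50 ± 0.13 over all 4. All 8 values were positive, and the probes differed in which array was lowest. Leaving out 1 array at a time moved the first probe between 1.14 and 1.81 and the second between 0.34 and 0.65.

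In FE the first probe read 1.21 (swapped) and 0.27 (unswapped) at 16 h, and 1.30 (swapped) and 1.27 (unswapped) at 8 h. Again 3 arrays agreed closely and the unswapped array at 16 h stood apart. The fitted value was 1.01 ± 0.21 (SE, n = 4), 2.02-fold higher than WT. On the second probe the arrays read 0.64 and 0.24 at 16 h and 0.46 and 0.58 at 8 h, swapped first, and gave 0.48 ± 0.13. The same unswapped array was the lowest on both probes. Without 1 array at a time the first probe gave 0.84 to 1.19.

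In CO, a line named for the transcriptional activator of FT, the first probe read 1.18 (swapped) and 0.61 (unswapped) at 16 h, and 0.76 (swapped) and 0.99 (unswapped) at 8 h. No array stood apart, and the value was 0.89 ± 0.21 (SE, n = 4), 1.85-fold higher than WT. The second probe read 0.71 and 0.06 at 16 h and 0.39 and 0.79 at 8 h, swapped first, and gave 0.49 ± 0.13. All 8 values were positive.

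GI, named for a clock-associated protein upstream of CO, came next. In the fit its 16 h arrays count as 1 replicate, their average, since their labels give a single biological replicate. The first probe read 0.64 (swapped) and 0.66 (unswapped) at 16 h, and 0.42 (swapped) and 0.00 (unswapped) at 8 h, and the value was 0.43 ± 0.26 (SE, n = 3). The second probe read 1.01 and 0.52 at 16 h and 0.22 and 0.00 at 8 h, swapped first, with a value of 0.44 ± 0.16. Over all probes the GI arrays at 8 h ran opposite to each other, with an r of -0.51, and array weights gave them the lowest weight of all (0.295 each). GI was the only line of the first 5 in which the second probe was no lower than the first. FWA followed with 0.29 ± 0.21 on the first probe and 0.18 ± 0.13 on the second, and its unswapped array at 16 h read -0.25 on the first. Without the swapped FWA array at 16 h the first probe gave 0.15, and the second gave 0.04 without the unswapped array at 8 h and 0.33 without the swapped one.

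At the lower end stood SOC1 and FCA. In SOC1 the first probe read -0.32 (swapped) and -1.18 (unswapped) at 16 h, and -0.16 (swapped) and -0.48 (unswapped) at 8 h. The fitted value was -0.54 ± 0.21 (SE, n = 4), 1.45-fold lower than WT. The second probe read -0.33 and -0.72 at 16 h and -0.22 and -0.37 at 8 h, swapped first, and gave -0.41 ± 0.13. All 8 values were negative, and on both probes each unswapped array was lower than the swapped array of its day length.

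In FCA, named for an RNA-binding protein, the first probe read -0.28 (swapped) and -0.51 (unswapped) at 16 h, and -0.72 (swapped) and -0.52 (unswapped) at 8 h, with a value of -0.51 ± 0.21 (SE, n = 4), 1.42-fold lower than WT. The second probe was at 0.00 and -0.40 at 16 h and at -0.32 and 0.00 at 8 h, swapped first, and its value was -0.18 ± 0.13. The first probe was negative on all 4 arrays, whereas the second was negative on 2 of 4. The second-probe value was -0.04 without the swapped array at 8 h and -0.31 without the unswapped one. FHA, named for cryptochrome 2, had -0.27 ± 0.21 on the first probe and -0.08 ± 0.13 on the second, with negative values on 4 and 3 of its 4 arrays. Without 1 array at a time the FHA value on the first probe ran from -0.41 to -0.13, -0.13 being the value without the swapped array at 16 h.

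**Figure D1:**
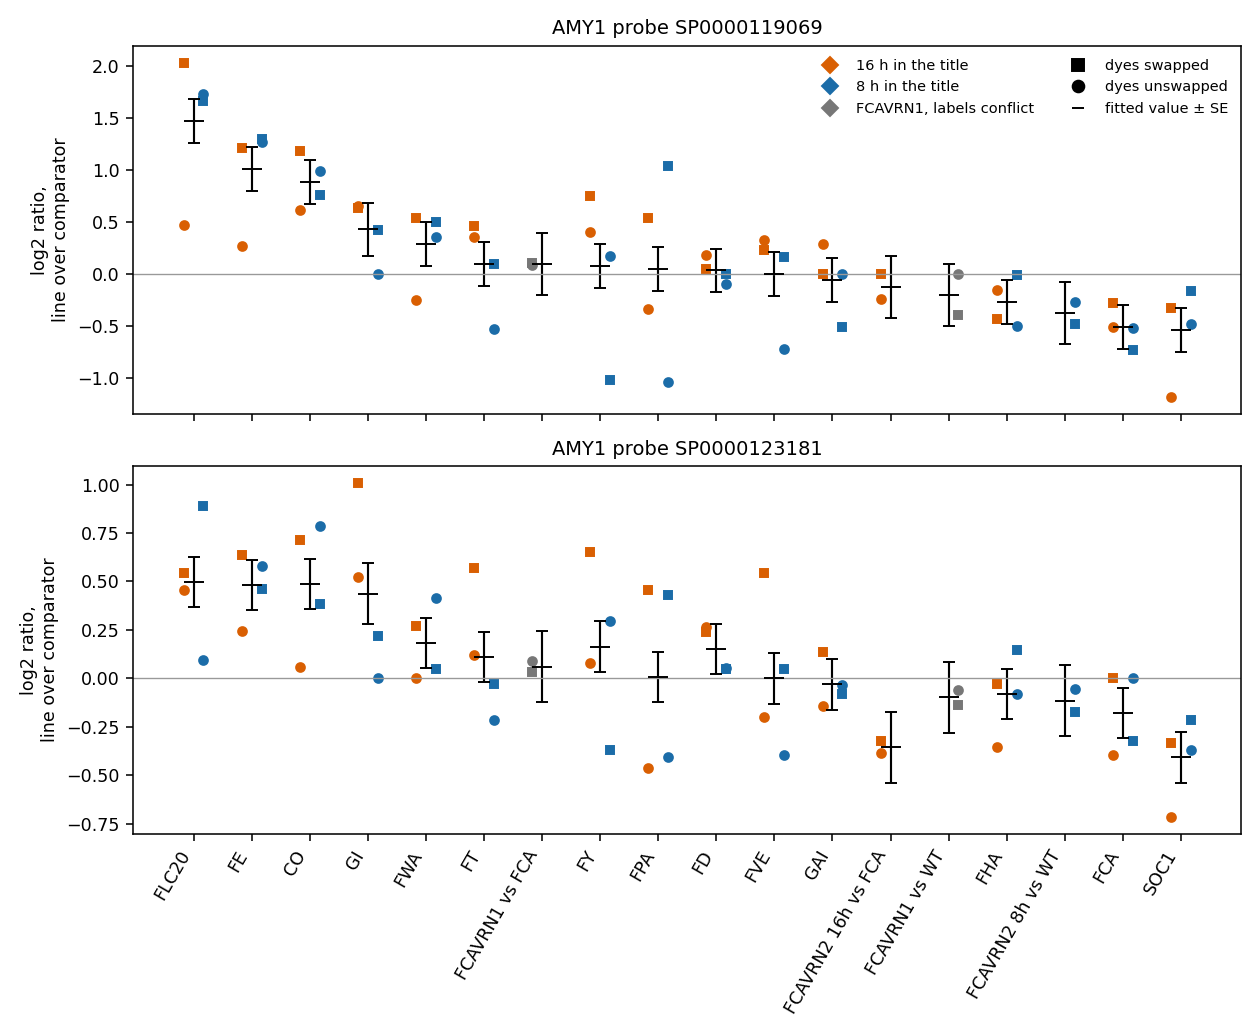
Log2 ratios (vertical axis) of both AMY1 probes on each array, for every line or double mutant group in the order of the first probe. Squares are arrays with swapped dyes, circles unswapped ones, colours give the hours of light in the titles, and black bars show the fitted value ± SE. FLC20, FE and CO had all 4 arrays above 0 on both probes and SOC1 all 4 below 0.

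The double mutants were measured on 2 arrays a group. FCAVRN2 against FCA at 16 h read 0.00 (swapped) and -0.24 (unswapped) on the first probe and -0.33 and -0.39 on the second, with values of -0.12 ± 0.30 and -0.36 ± 0.18 (SE, n = 2). FCAVRN2 against WT at 8 h read -0.48 and -0.27 on the first probe and -0.18 and -0.06 on the second, swapped first, with values of -0.37 ± 0.30 and -0.12 ± 0.18. Without its swapped array, the fit with the dye term gave -0.13 and 0.05 for this group. Neither FCAVRN2 group had a positive value on either probe. FCAVRN1 against FCA read 0.11 and 0.08 on the first probe and 0.03 and 0.09 on the second, and FCAVRN1 against WT read -0.39 and 0.00 on the first and -0.14 and -0.06 on the second, swapped first. The FCAVRN1 values were 0.09 ± 0.30 and 0.06 ± 0.18 against FCA, and -0.20 ± 0.30 and -0.10 ± 0.18 against WT. Against WT they were 0.14 and 0.04 without the swapped array, and against FCA they were -0.03 and -0.07 without the unswapped one.

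The remaining lines, FT, FY, FPA, FD, FVE and GAI, lay between -0.06 and 0.10 on the first probe, each with an SE of 0.21. A value near 0 did not mean 4 quiet arrays. FPA, named for an RNA-binding protein of the autonomous pathway, read 0.54 (swapped) and -0.33 (unswapped) at 16 h and 1.04 (swapped) and -1.03 (unswapped) at 8 h on the first probe. Its second probe read 0.46 and -0.46 at 16 h and 0.43 and -0.41 at 8 h, swapped first. On both probes both swapped FPA arrays were positive and both unswapped arrays negative, and the values over 4 arrays were 0.05 ± 0.21 and 0.00 ± 0.13. FY, named for an mRNA 3′ end processing factor that acts with FCA, ranged on the first probe between -1.02 and 0.75, FD between -0.10 and 0.19, and FVE between -0.72 and 0.33.

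Dye orientation moved with AMY1 over the whole series. Swapped minus unswapped arrays differed by 0.26 ± 0.11 (SE) on the first probe and by 0.20 ± 0.07 on the second, and 24.4% of all probes had an adjusted p under 0.05 for this term (limma, Benjamini-Hochberg). Each group holds both orientations. Its part in the values of single groups beyond this common term was not tested.

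Set among all probes of the same line, the first AMY1 probe had few probes beyond it in several lines. In FE only 2 probes had a higher fitted value, in CO 3 and in FLC20 4. In SOC1 21 probes, in FCA 36, in FCAVRN2 against WT 51 and in FHA 73 were lower. The second probe was exceeded by 17 probes in CO, 49 in FE, 218 in GI and 272 in FLC20, and 73 probes were lower in SOC1 and 607 in FCA. In GI 234 probes lay above the first probe.

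**Figure D2:**
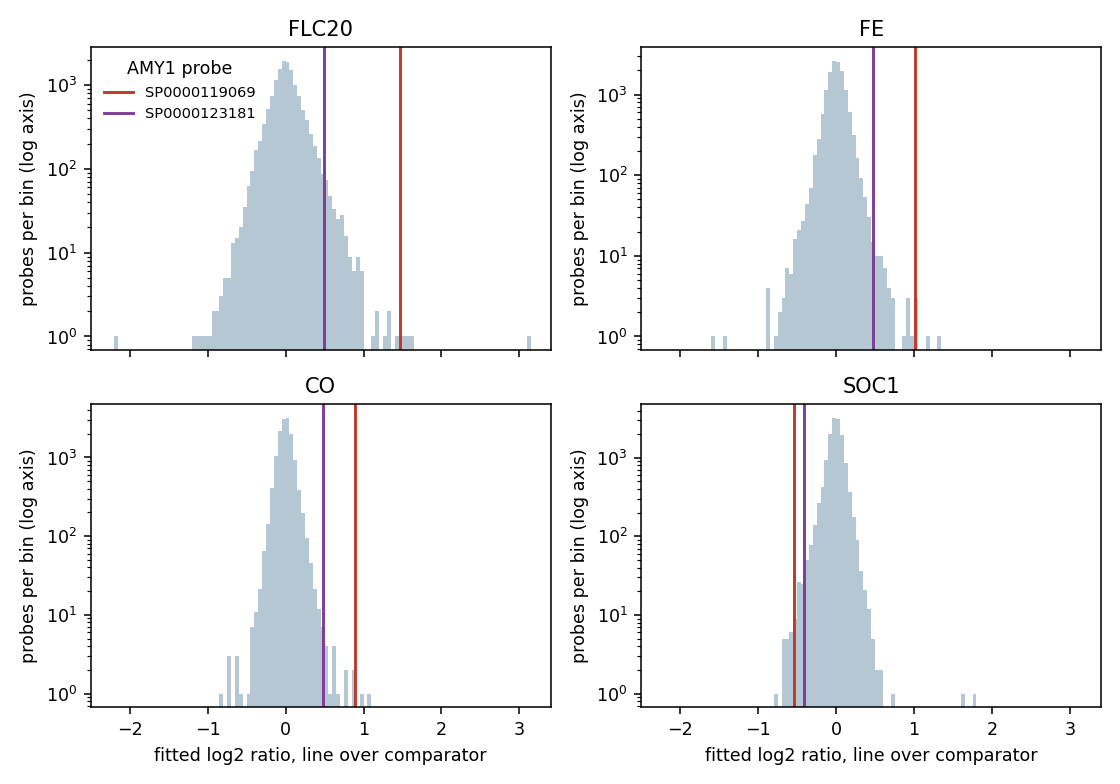
Distribution of the fitted log2 ratios of all 13824 probes in FLC20, FE, CO and SOC1, with the number of probes per bin on a log axis and both AMY1 probes as vertical lines. The first probe lies in the sparse upper tail in FLC20 (1.47), FE (1.01) and CO (0.89) and in the lower tail in SOC1 (-0.54).

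The order of lines on the first probe ran FLC20, FE, CO, GI, FWA, FT, FCAVRN1 against FCA, FY, FPA, FD, FVE, GAI, FCAVRN2 against FCA, FCAVRN1 against WT, FHA, FCAVRN2 against WT, FCA and SOC1. No neighbours in the order of either probe differed by more than 2 SE of their difference, but sorting makes neighbours the closest pairs. Of all 153 pairs, 52 differed by more than 2 SE on the first probe and 51 on the second. On the first probe FLC20 did so in 15 of its 17 pairs, FE and CO in 14 each, and SOC1 in 7. As the gene was chosen by these values, the counts are a description and not a test. The largest gaps on the first probe were 0.46 ± 0.30 (SE) between FLC20 and FE and 0.46 ± 0.33 between CO and GI. Most lines have WT as their common comparator, and the labels do not say whether arrays shared WT RNA.

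Grouped by pathway, the 7 photoperiod lines had a median of 0.29 on the first probe (range -0.27 to 1.01) and of 0.18 on the second (range -0.08 to 0.49). The 4 autonomous lines had medians of 0.03 (range -0.51 to 0.08) and 0.00 (range -0.18 to 0.16). Positive values made up 19 of 28 photoperiod arrays on the first probe and 21 on the second, and 8 of 16 autonomous arrays on each. These counts pool arrays of unlike lines, which are not replicates of a pathway, and the share over all probes was not computed. On the first probe all 4 arrays were positive in CO and in FE, but 0 of 4 in FHA and in FCA. The ranges of both classes overlapped, with FHA at the low end of the photoperiod lines. FT and FD, named for loci whose products act directly with or downstream of those of CO, had 0.10 ± 0.21 and 0.04 ± 0.21 on the first probe, against 0.89 ± 0.21 in CO. On the second probe FT and FD had 0.11 ± 0.13 and 0.15 ± 0.13, against 0.49 ± 0.13 in CO. CO lay above FT by 0.79 ± 0.30 (SE of the difference) on the first probe and by 0.38 ± 0.18 on the second. It lay above FD by 0.85 ± 0.30 and 0.33 ± 0.18. These pairs were picked from 153 per probe and were not tested.

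Both probes moved together over the 32 group means, with a Pearson r of 0.877 and a Spearman rho of 0.912. Without the groups farthest from the median, FLC20 at 8 h and FE at 8 h, r was 0.893, and without both FLC20 groups 0.894. The groups share arrays for both probes, so array effects enter both. Both probes had the same sign in 28 of 32 groups, and the first was larger in size in 27. In FLC20 at 8 h the first probe averaged 1.70 and the second 0.49, whereas in GI at 16 h they averaged 0.65 and 0.76. The sources used here do not say which region of the transcript each probe reads.

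**Figure D3:**
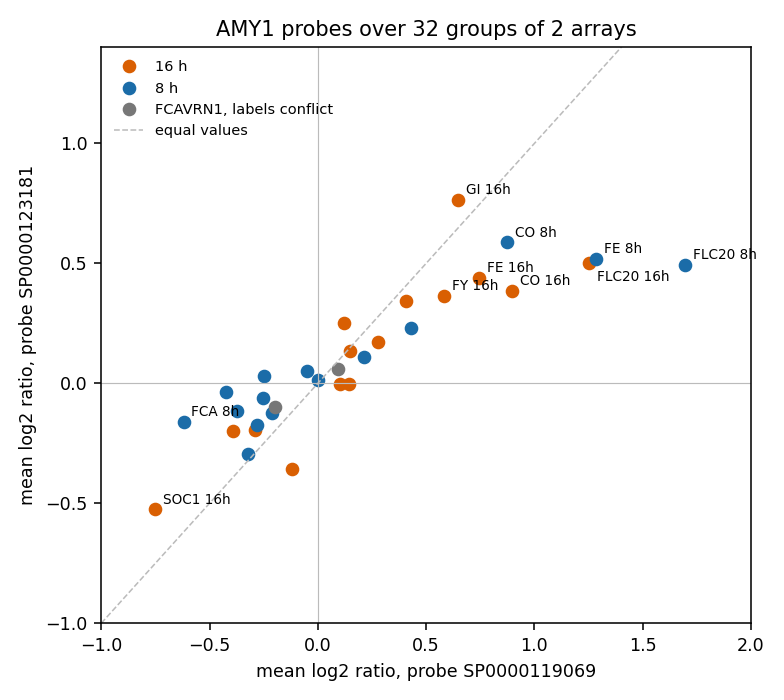
Mean log2 ratio of the second AMY1 probe (vertical) against that of the first (horizontal) for the 32 groups of 2 arrays, coloured by hours of light. The first probe was the larger in size in 27 of the 32 groups, and GI at 16 h lies above the dashed line of equal values.

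The arrays of a group did not always share a sign. On the first probe they did in 20 of 32 groups, were opposite in 6, and 1 array was at exactly 0 in the other 6. On the second probe the counts were 21, 8 and 3. In 4 groups the arrays had opposite signs on both probes.

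Day length was compared as 16 h minus 8 h of the ratio to the comparator grown alike, so these values say nothing of AMY1 in WT across day lengths. FY had the largest difference on the first probe: its arrays read 0.75 and 0.41 at 16 h, against -1.02 and 0.17 at 8 h, a difference of 1.00 ± 0.42 (SE). The second probe read 0.65 and 0.08 at 16 h, against -0.37 and 0.29 at 8 h, a difference of 0.40 ± 0.26, and its day lengths overlapped. Without 1 array at a time the FY difference ran from 0.26 to 1.75 on the first probe, and the lowest was the value without the swapped array at 8 h.

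In FT, named for the mobile flowering signal, the first probe read 0.46 and 0.35 at 16 h, against 0.10 and -0.53 at 8 h. The second probe read 0.57 and 0.12 at 16 h, against -0.03 and -0.21 at 8 h. The differences were 0.62 ± 0.42 and 0.47 ± 0.26 (SE), and on both probes all 16 h arrays lay above all 8 h arrays. GI showed the same arrangement, with 0.44 ± 0.51 and 0.65 ± 0.32, though its 8 h arrays are those with an r of -0.51 over all probes. The unswapped GI array at 8 h had a ratio of exactly 1 on both probes, and the 16 h arrays of GI share a biological replicate number. FD had this arrangement at a smaller size, with 0.17 ± 0.42 and 0.20 ± 0.26. The FVE difference, by its titles, was 0.56 ± 0.42 and 0.35 ± 0.26, and its arrays did not overlap on the first probe only.

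Of the 14 single lines, all 16 h arrays lay above all 8 h arrays in 6 lines on the first probe (FCA, FD, FT, FVE, FY and GI) and in 3 on the second (FD, FT and GI). With so few arrays such an arrangement also arises by chance. Its share over all probes was not computed, so the counts are a description only. In FCA (0.23 ± 0.42), FD and GI the first-probe difference was smaller than its SE. FE alone had both 16 h arrays below the 8 h arrays, on the first probe, with a difference of -0.54 ± 0.42 against -0.08 ± 0.26 on the second. Without the unswapped array at 16 h, the one at 0.27, the first-probe difference was -0.19, and without the swapped array at 16 h it was -0.89. The lines with the highest AMY1 values showed no shared direction: the differences were 0.02 ± 0.42 in CO and -0.44 ± 0.42 in FLC20 on the first probe. FLC20 turned to 0.50 on the first probe when the arrays were scaled to a common spread.

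**Figure D4:**
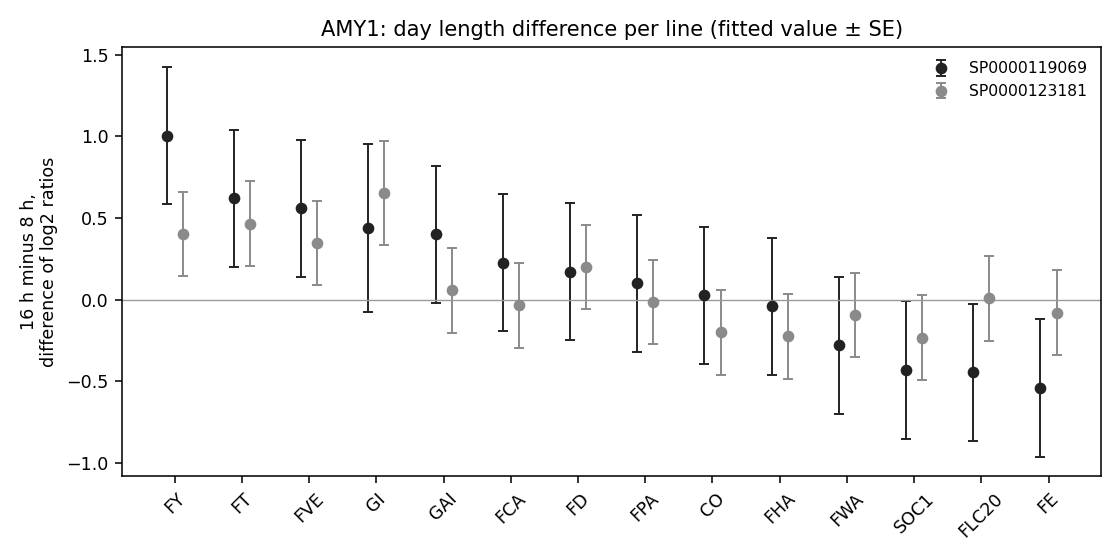
Difference of log2 ratios, 16 h minus 8 h, per line for both AMY1 probes (points, with SE as bars), ordered by the first probe. FY (1.00 on the first probe), FT and FVE lie at the upper end and FE (-0.54) at the lower end.

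Few other genes of starch metabolism could be read. Of 27 listed genes of starch breakdown besides AMY1, only PWD had a named probe, and of 15 genes of starch synthesis only SBE2.2. AMY2, AMY3 and the beta-amylases had none. Among the other lists, 3 of 19 genes of senescence and sugar starvation (SAG101, WRKY53 and WRKY6, on 6 probes) and 1 of 29 gibberellin genes (SLY1) had a named probe, and 0 of 10 seed storage genes and 0 of 7 floral organ genes did, so the labelled material could not be checked against those markers.

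PWD, the phosphoglucan, water dikinase that phosphorylates starch granules, stood at -0.03 ± 0.17 in FLC20, -0.22 ± 0.17 in FE, -0.14 ± 0.17 in CO and -0.24 ± 0.17 in SOC1 (SE, n = 4 each). Its lowest value was -0.67 ± 0.25 in FCAVRN2 against FCA at 16 h (adjusted p = 0.0797, limma with Benjamini-Hochberg over all probes). SBE2.2, a starch branching enzyme, stood at 0.10 ± 0.14 in FLC20, 0.21 ± 0.14 in FE, 0.11 ± 0.14 in CO and 0.10 ± 0.14 in SOC1. Its highest value was 0.28 ± 0.14 in FD (limma adjusted p = 0.247). Neither gene passed the test in any line. PWD passed it in FCAVRN2 against FCA when ratios of exactly 1 were set to missing (-1.41, limma adjusted p = 0.0125), where 1 of the 2 arrays then gives the value, and likewise without the unswapped array (-1.42, limma adjusted p = 0.00331). SBE2.2 passed it in FD in a fit to the FD arrays alone (0.28, limma adjusted p = 0.043).

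Of the 9 listed probes, 0 had an adjusted p under 0.05 by limma in 162 tests of a line against its comparator, where 7 had an unadjusted p under 0.05. Over all probes the share called in these 18 comparisons was 1.35%. It was 6.09% in FLC20, 0.253% in FE, 0% in CO, 1.17% in GI, 0.0723% in FCA and 0.0289% in SOC1. In FCAVRN2 against FCA and in FD, where PWD and SBE2.2 passed under other settings, the share was 7.85% and 5.85%. For day length, 0 of 126 tests were called by limma, against 0.0109% over all probes, and 4 had an unadjusted p under 0.05. The listed share at an unadjusted p under 0.05 was 4.32% for lines, against 10.1% over all probes, and 3.17% for day length, against 6.02% over all probes.

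The genes whose pattern was most like AMY1 were ranked by Pearson r with the mean of both AMY1 probes over the 32 group means, among 5121 named genes. These are descriptions over groups that share comparators and dye layout, and the r of all named probes had a median of -0.01. The highest was AT3G22560 with 0.80, which read 0.25 in FLC20, 0.24 in FE, 0.22 in CO and -0.07 in SOC1, a far smaller size than AMY1, and 0.01 in FCA, where the first AMY1 probe read -0.51. AT1G48540 (0.73), AT5G17380 (0.70) and FLDH (0.69), a farnesol dehydrogenase, followed. ICL, the isocitrate lyase of the glyoxylate cycle, had 0.68, AT4G24820 had 0.67, AT5G28830 had 0.66, and FDH, the mitochondrial formate dehydrogenase, 0.65.

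FDH read 0.22 in FLC20, 0.59 in FE, 0.38 in CO, 0.59 in GI and -0.17 in SOC1, and its r was 0.76 without the FLC20 groups. Its highest value was 0.66 in FD, where the AMY1 probes read 0.04 and 0.15. AT5G17380 read 0.62 in FLC20, 0.53 in FE, 0.31 in CO, 0.45 in GI and -0.15 in SOC1, and its other probes had an r of 0.56 and 0.38. It also read 0.49 in FD and 0.38 in FVE, lines in which AMY1 was not among the highest. ICL read 0.40 in FLC20, 0.29 in FE, 0.25 in CO and -0.03 in SOC1, but its other 3 probes had an r of 0.27, -0.08 and -0.09, and the other probe of AT1G48540 had -0.05. For ICL and AT1G48540 the likeness therefore held for 1 probe and not for the gene. A further 4 probes without a gene name had a higher r than AT3G22560.

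The most opposite patterns were those of AT3G22100 (-0.70), AT4G39290 (-0.65), AT5G51490 (-0.63) and AT1G61660 (-0.62). AT4G39290 read -0.44 in FLC20, -0.37 in GI and -0.17 in FE, and AT1G61660 read -0.19 in FLC20 and 0.22 in FCA. Without the FLC20 groups, 4 of the 8 most like genes stayed among the first 8, and 0 of the 4 most opposite stayed among the last 4.

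**Figure D5:**
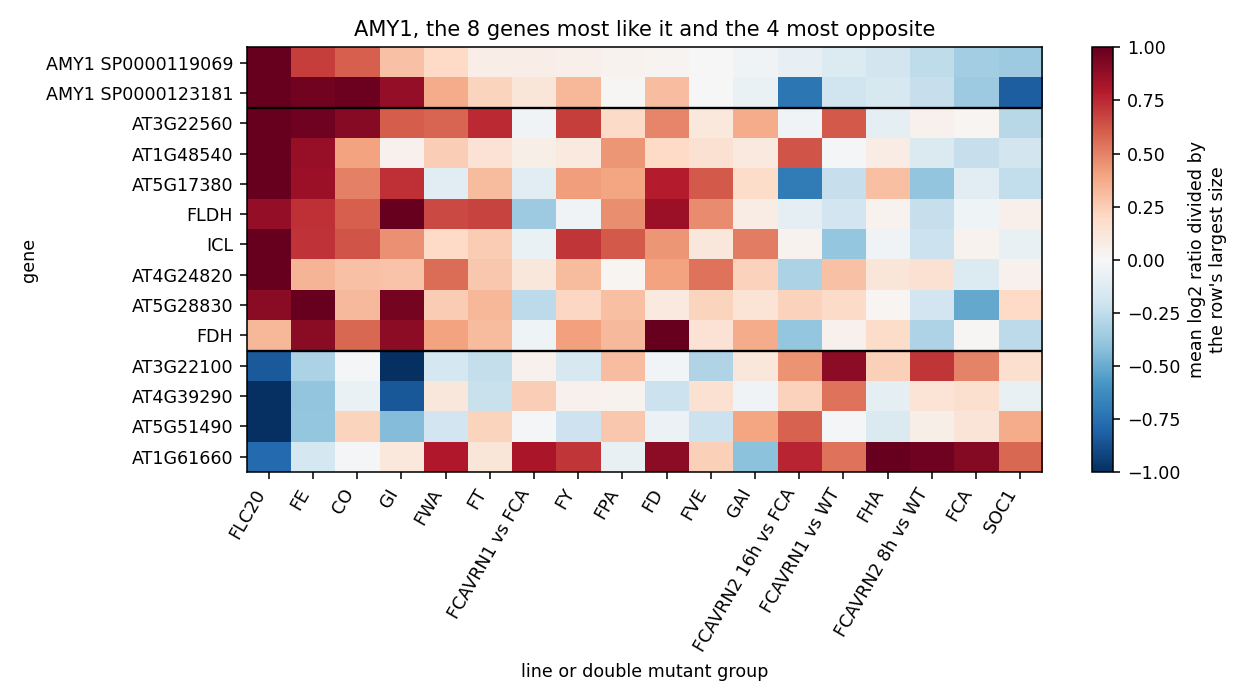
Mean log2 ratio in each line or double mutant group, divided by the largest size in the row, for both AMY1 probes, the 8 genes most like AMY1 and the 4 most opposite (black lines separate them). The upper genes share the red cells of FLC20, FE and CO at the left, and the lowest rows are blue in FLC20.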

How the data were processed

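Each array measured total RNA of a line and of its comparator in 2 channels. The deposited values are linear ratios with a median of 1 on every array. Per the labels' descriptions the authors applied a spatial normalization, and the titles name files of a GenePix scanner. The sources used here do not state the background correction, spot filters, dyes or direction of the ratio. Of all ratios 146 were missing, and between 10.3% and 11.6% per array were exactly 1.

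The deposited ratios were taken to log2. The platform annotation gave 1 gene to 6341 probes, several to 0 and none to 7483, and 6322 probes matched the TAIR10.1 gene table, of which no coordinates were used. No sequence was available for the probes or AMY1. Both AMY1 probes were kept apart.

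One limma model (limma 3.58.1, R 4.3.3) was fitted to all probes and arrays, with a mean per line, a 16 h minus 8 h term per single line, a mean per double mutant group and a dye orientation term, with 30 residual and 5.17 prior degrees of freedom. The GI arrays at 16 h with a shared biological replicate number were averaged to 1 replicate. SEs are moderated. Tests of listed genes were two-sided, adjusted by Benjamini-Hochberg within a contrast over all probes, and called under 0.05. The fit was also run on simulated data, with independent normal noise per probe and known changes added in FE only. These data held no array-wide effects and no excess of ratios of exactly 1, so the run does not cover those. AMY1 itself received no p-value.

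AMY1, the gene lists and the rule for named genes were chosen with earlier results of these data known. The text names AMY1, all starch genes with a named probe, list genes called in FE or FLC20 (of which there were 0, so the other list genes are named only to say what was measured), and the 8 genes most and 4 least like AMY1, with 1 probe a gene. Alternatives were no dye term, scaled arrays, quantile normalization, array weights, a replicate block, leaving out each array, the GI arrays kept separate, the arrays of a line alone and ratios of exactly 1 set to missing. Scaling used median absolute values, because the median ratio of each array is 0 on the log2 scale.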

Additional observations from a re-analysis of the deposited data

Results flagged for a closer look

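On the first AMY1 probe the FE array at 16 h with unswapped dyes read 0.27, while the other 3 FE arrays lay between 1.21 and 1.30. Its gap to the nearest array was 0.913 of the range of the line. The FVE array at 8 h with unswapped dyes read -0.72, while the other 3 lay between 0.16 and 0.33, with a gap of 0.843 of the range. Such gaps were picked by a fixed ratio over 28 sets of 4 arrays, each of both day lengths of a line, and 2 sets met it, where chance gives about 1 in 20 sets. As the gene was chosen by these values, the gaps are a description and not a test.

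On the second probe the FT arrays were all positive at 16 h (0.57 and 0.12) and all negative at 8 h (-0.03 and -0.21), a difference of 0.47. This difference was not tested.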

How the results depend on the processing

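Of the AMY1 values per line, none changed by more than the residual SD of its probe under the other settings run, and with an array left out 2 of 128 did. Both were of FPA on the first probe, which ran from -0.42 to 0.52. None of the AMY1 values beyond 2 SE turned sign. Across the settings other than a left-out array, the first probe ran from 1.09 to 1.47 in FLC20, from 0.97 to 1.08 in FE, from 0.89 to 1.14 in CO, from -0.64 to -0.51 in FCA and from -0.57 to -0.49 in SOC1. The 16 h minus 8 h differences were less stable. With scaled arrays FLC20 had 0.50 on the first probe and 0.30 on the second, and with ratios of exactly 1 missing GAI had 1.14 on the first, which leaves fewer arrays. With an array left out, the first probe ran from -1.12 to 0.23 in FLC20, from -0.84 to 1.04 in FPA and from 0.26 to 1.75 in FY. The second ran from -0.51 to 0.11 in CO, from -0.30 to 0.31 in FLC20, from -0.39 to 0.36 in FPA, from 0.066 to 0.63 in FVE, from -0.39 to 0.20 in FWA and from -0.045 to 0.85 in FY. Where a left-out array leaves a group with 1 array, that array is assumed to vary like the others. Listed probes called per line numbered 0 in the reported fit, 1 (PWD) with ratios of exactly 1 missing, 2 (SLY1 and SBE2.2, in FD) when each line was fitted by itself, and between 0 and 2 with an array left out. They numbered 2, WRKY53 in FLC20 and WRKY6 in FCAVRN2 against FCA, without the unswapped FLC20 array at 8 h. Single calls came with SAG101 in FCA without the unswapped FCA array at 8 h (limma adjusted p = 0.00628), with SLY1 in GI without the unswapped GI array at 8 h (0.0231), with PWD in FCAVRN2 against FCA without its unswapped array (0.00331), and with WRKY6 in FCAVRN2 against FCA without either FHA array at 16 h, FT array at 8 h or SOC1 array at 16 h or the swapped FLC20 array at 8 h. The genes so named were chosen after their values were seen. For day length they numbered 0 in the reported fit and between 0 and 1 with an array left out, 1 being SAG101 in FCA without the unswapped FCA array at 8 h and WRKY6 in FWA without the swapped FWA array at 16 h. Apart from left-out arrays the cause of these changes was not tested. In fits to single lines GI could not be fitted, and double mutant groups were not run. The residuals of same-numbered arrays of a line correlated above 0.1 in 4 of 27 pairs (median r -0.04). Both arrays of a group have mirrored residuals in this fit, so each line but GI enters under both numbers with the same r. The pairs above 0.1 were those of FE (0.24) and GAI (0.26). The fit leaves no residual for the averaged GI replicate at 16 h, so the GI pair says nothing. This count therefore does not settle whether replicate numbers pair the samples. With the replicate block the AMY1 value was 1.47 in FLC20 and 1.01 in FE on the first probe, and 0 listed probes were called per line and for day length.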
